A study of Mus musculus with 12 samples.

Results

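The comparison described here asked how microglia that lack the histone deacetylase HDAC3 responded to stroke, by setting the 3 miKO-tFCI libraries against the 3 miKO-Sham libraries across all genes, with sequencing batch as a term. These are 6 of the 12 bulk RNA-seq libraries of the series, and they were chosen by their labels and not by any measured value. All mice were male and carried Hdac3 loxp/loxp. The miKO mice were Cx3cr1 CreER/wt, so that tamoxifen removed Hdac3 from cells that expressed Cx3cr1, and the WT mice were Cx3cr1 wt/wt. Tamoxifen was given at 6 to 8 weeks of age, and surgery followed at least 1 month later, an interval meant to let short-lived blood monocytes be replaced by cells without the deletion. Whether the WT mice also received tamoxifen is not given in the sources used here. In the tFCI (transient focal cerebral ischemia) groups the left middle cerebral artery was blocked for 60 min, and the Sham groups had the surgery without the occlusion. On day 3, cells with intermediate CD45 and positive CD11b were sorted as microglia, and each library, described as a biological replicate, pooled the cells of 3 to 4 hemispheres. The model has limits that bear on every value below: CreER occupied 1 Cx3cr1 allele in miKO mice and none in WT mice, a CD45 gate is a range of surface staining that can admit other myeloid cells, and recombination was not measured in these libraries.

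Microglia are the resident macrophages of the brain. In healthy tissue they express a homeostatic set of genes that includes the purinergic receptor P2ry12 and the fractalkine receptor Cx3cr1, and after ischemia they lower that set, divide, take up debris and lipid, and release chemokines and cytokines. HDAC3 is the catalytic subunit of the NCoR corepressor complexes, which remove acetyl groups from histones at genes bound by nuclear receptors and other transcription factors, and in macrophages it is known to act on inflammatory and interferon gene expression.

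Expression is given as CPM, the reads of a gene relative to the reads on all genes of its library, scaled by edgeR's TMM factors, and log2FC is the fitted log2 fold change, positive where miKO-tFCI was higher. Errors of log2FC are standard errors derived from the test statistic of a single fit to all 12 libraries, with n = 3 libraries per group. The p-values come from quasi-likelihood tests in edgeR and were adjusted over all 16451 genes tested by the Benjamini-Hochberg method. A gene was called a differentially expressed gene (DEG), and is described as having risen or fallen, when its adjusted p was under 0.05 and its log2FC was beyond 0.58 in either direction. In bulk RNA, fewer cells of a type and less RNA per cell cannot be told apart.

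The 6 miKO libraries held 8123191 to 9452222 reads on genes, or 33.7 to 38.5 percent of all reads. Replicates 1 and 2 of miKO-Sham were deposited under names with the same sample code, and whether they are separate pools or 2 runs of 1 pool cannot be told from the sources used here. The chi-square per degree of freedom between their counts was 2.82, against 3.65 to 76.6 for the other pairs within groups, while by the correlation of log2 CPM (0.976) replicates 2 and 3 of WT-Sham (0.981) and of WT-tFCI (0.980) were closer. A difference beyond counting noise can also arise between runs or preparations of 1 pool, so the n of 3 for miKO-Sham rests on the labels, and the counts of DEGs were also computed with the reads of both summed into 1 library. Replicate 2 of miKO-Sham was labelled batch 2 but lay on the batch 1 side of the difference that separated the batches in the other groups. Replicate 1 of miKO-tFCI, the only miKO-tFCI library of batch 1, stood apart from replicates 2 and 3, with values of 54.9 and 76.6 against 12.9 between replicates 2 and 3. Many of the results that rest on these libraries are given with and without them.

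Stroke moved 5887 of the 16451 genes tested in HDAC3-deficient microglia, a share of 35.8%. Of these DEGs, 3603 (21.9%) were higher and 2284 (13.9%) were lower in miKO-tFCI. The rises were larger than the falls: 1893 genes rose and 154 fell by more than 2 on the log2 scale, and 1190 rose and 18 fell by more than 3. In 5520 of the 5887 DEGs every library of one group lay beyond every library of the other, a pattern that 26.5% of all genes tested showed in the higher and 21.6% in the lower direction. Within batch 2 alone 2631 genes were called higher and 1781 lower, and batch 1, with 1 library per group, allowed no test. Without replicate 1 of miKO-tFCI the counts were 2808 higher and 1869 lower, and with replicates 1 and 2 of miKO-Sham summed they were 2636 higher and 1742 lower with no batch term and 3896 higher and 2337 lower with the sum set in batch 1.

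**Figure D1:**
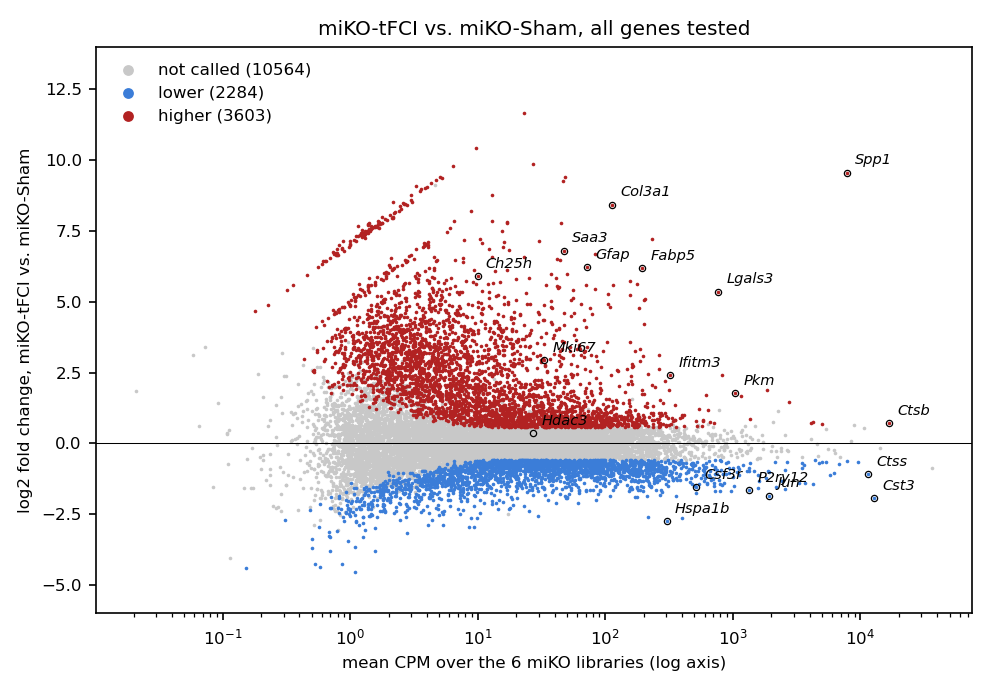
Each point is 1 of the 16451 genes tested, placed by its mean CPM over the 6 miKO libraries (log axis) and its log2FC in miKO-tFCI vs. miKO-Sham, with the 3603 higher genes in red, the 2284 lower genes in blue and the others in grey. The red points reach far above 5 while the blue points stay mostly above -3, and the straight streak at low CPM is formed by genes without a count in miKO-Sham, 108 of which were called higher and whose fold change depends on the prior count.

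The gene with the largest rise among well-counted genes was Spp1, which encodes osteopontin, a secreted glycoprotein that binds integrins and CD44. It stood at 10.7, 6.52 and 42.8 CPM in miKO-Sham and 7120.1, 15733 and 23976 CPM in miKO-tFCI (log2FC 9.57 ± 0.64, adjusted p = 9.9e-08). The leading genes were chosen among those whose groups did not overlap, so the separation of the libraries is part of the choice. The next 9 by size were Col3a1 (8.43) and Dcn (7.23), a collagen chain and a proteoglycan of connective tissue, Fbln2 (6.85), an extracellular matrix glycoprotein, Serpina3n (7.78), a serine protease inhibitor, Emp1 (7.14), a membrane protein, Il33 (7.11), an alarmin, Cyp1b1 (6.93), a cytochrome P450, Saa3 (6.80), an acute phase protein, and Ifitm1 (6.70), an antiviral membrane protein. Of these 10 genes, only Spp1 and Saa3 were higher in replicates 2 and 3 of miKO-tFCI than in replicate 1, and the other 8 were highest in replicate 1. Most had few reads in miKO-Sham, and the fitted change moved with single Sham libraries: without replicate 2 of miKO-Sham, which held their only Sham reads, Cyp1b1 came to 11.4 and Fbln2 to 11.4, and without replicate 3, Col3a1 came to 10.3.

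The falls were led by Tnfrsf17, the receptor BCMA, at 14.7, 12.3 and 18.3 CPM in miKO-Sham and 2.68, 2.26 and 0.989 CPM in miKO-tFCI (log2FC -2.95 ± 0.32, adjusted p = 6.3e-06). Here too the choice was limited to genes whose groups did not overlap. The inducible heat shock proteins Hspa1b (536, 548 and 491 CPM in miKO-Sham and 91.1, 73.0 and 72.2 CPM in miKO-tFCI, log2FC -2.75 ± 0.20, adjusted p = 2.4e-07) and Hspa1a (-2.64) followed. They are near-identical copies between which reads can be split, so they count as 1 observation. The other 7 genes, Pcnx2, Tll2, Ahrr, Phxr2, Tmigd3, Pde2a and Frs3, were at 6.94 CPM or less in every library and fell by 2.34 to 2.72 on the log2 scale. The calls of Tll2, Ahrr and Phxr2 were lost when single libraries were left out: the adjusted p of Tll2 lay between 0.0508 and 0.0639 without replicate 1 or 2 of miKO-Sham or without replicate 1 or 2 of miKO-tFCI, that of Ahrr was 0.0548 without replicate 1 of miKO-Sham, and that of Phxr2 lay between 0.0683 and 0.132 without replicate 1 or 2 of miKO-Sham or without replicate 1 or 3 of miKO-tFCI.

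**Figure D2:**
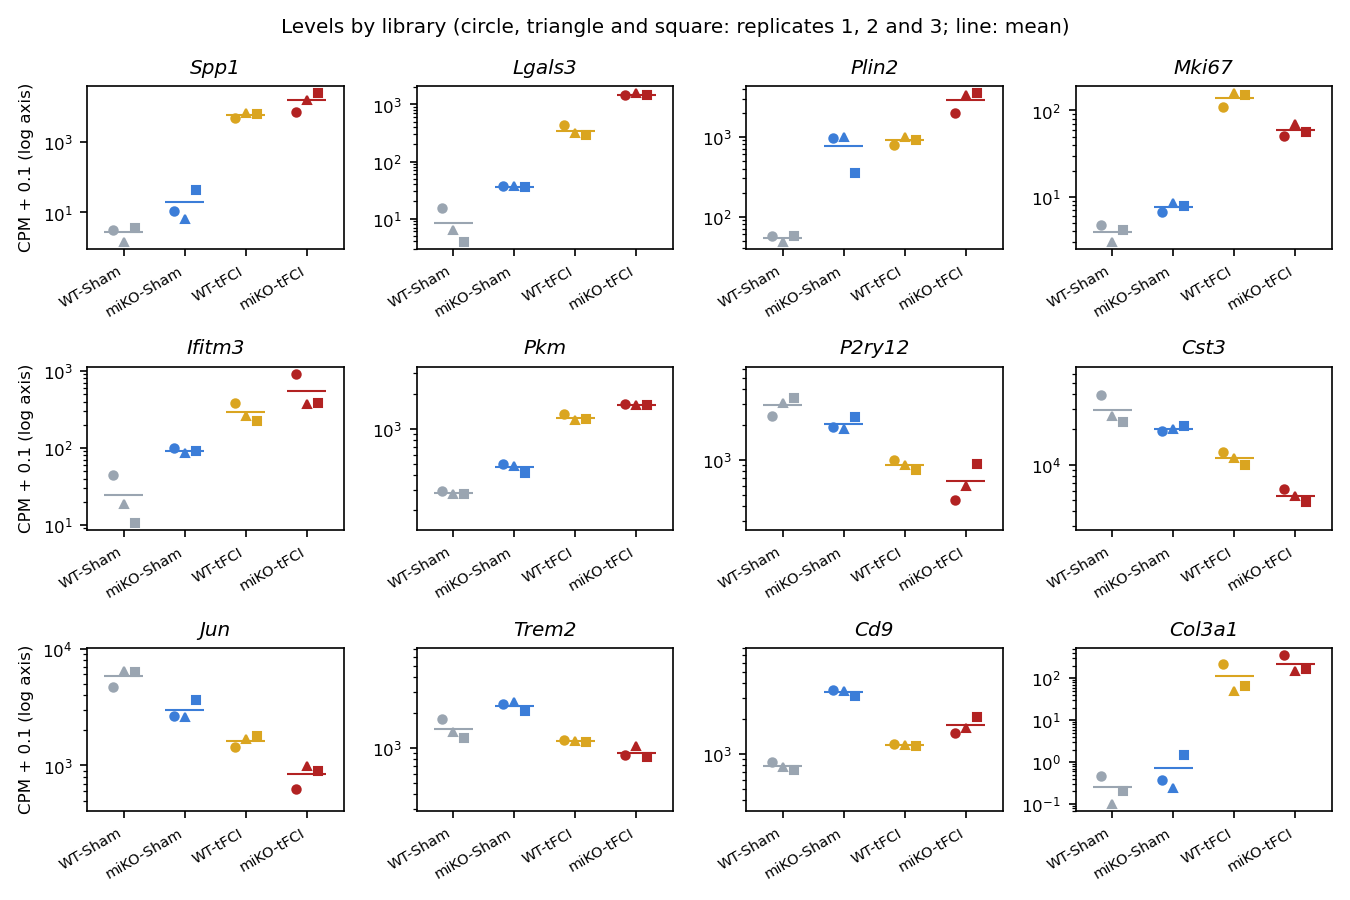
CPM + 0.1 (log axis) of 12 genes in every library of the 4 groups, with circles, triangles and squares for replicates 1, 2 and 3 and a line at the mean. Spp1, Lgals3, Plin2, Mki67, Ifitm3, Pkm and Col3a1 were higher and P2ry12, Cst3, Jun, Trem2 and Cd9 lower in each miKO-tFCI library than in each miKO-Sham library, and Cd9 rose in WT.

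The targeted gene came first among the checks. Hdac3 (chr18:37935844-37955016, minus strand, GRCm38) was counted at 25.8, 25.0 and 20.9 CPM in miKO-Sham and 36.0, 27.1 and 28.9 CPM in miKO-tFCI (log2FC 0.36 ± 0.17, adjusted p = 0.093) and was no DEG. The 3 miKO-tFCI libraries nevertheless lay above the 3 miKO-Sham libraries. The WT libraries held 35.0, 44.0 and 46.4 CPM in WT-Sham and 54.0, 52.9 and 43.9 CPM in WT-tFCI. Of these 6 libraries 5 lay above the highest miKO library, and replicate 1 of WT-Sham lay just below replicate 1 of miKO-tFCI, so the genotypes overlapped. The count covers the whole gene, including exons outside the deleted part, so it does not measure how complete the deletion was. Of the 11 genes that encode class I HDACs and HDAC3 corepressor subunits, 2 rose and 1 fell. These are 27.3% of the list, no more than the 35.8% called over all genes tested. The median log2FC of the list was -0.20, against 0.03 over all genes tested. Hdac1, a paralog of HDAC3 in other corepressor complexes, rose (log2FC 0.61 ± 0.16, adjusted p = 0.0067), as did Bcl6 (log2FC 0.62 ± 0.15, adjusted p = 0.0053), a transcriptional repressor that recruits corepressors, while Gps2, a subunit of the NCoR complex, fell (log2FC -0.58 ± 0.12, adjusted p = 0.0015). Each of these 3 calls was lost when a single library was left out: Hdac1 came to 0.39 without replicate 1 of miKO-tFCI and to 0.52 without replicate 1 or 2 of miKO-Sham, Bcl6 to 0.50 without replicate 3 of miKO-tFCI, to 0.56 without replicate 2 and to 0.51 without replicate 3 of miKO-Sham, and Gps2 to -0.49 without replicate 3 of miKO-Sham. Without replicate 2 of miKO-tFCI 2 members were lower. The corepressor gene Ncor1, a scaffold of the complex, was not called (log2FC -0.30, adjusted p = 0.062).

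Homeostatic genes fell as a group. Of the 40 tested members of the homeostatic microglia list, 34 fell, 1 rose (0 without replicate 1 of miKO-Sham or replicate 3 of miKO-tFCI) and the median log2FC was -1.06, against 13.9% lower and a median of 0.03 over all genes tested. The sum of the list was 74561, 74220.5 and 82866 CPM in miKO-Sham and 28224, 35919 and 40274 CPM in miKO-tFCI, with no overlap between groups. P2ry12, the ADP receptor that guides microglial processes to injury, was at 1903, 1838 and 2338 CPM in miKO-Sham and 454, 597 and 920.4 CPM in miKO-tFCI (log2FC -1.65 ± 0.21, adjusted p = 3.1e-05). Cx3cr1, which binds neuronal fractalkine and whose locus carries CreER here, was at 1092, 1052 and 1446 CPM in miKO-Sham and 291, 478 and 544 CPM in miKO-tFCI (log2FC -1.48 ± 0.18, adjusted p = 1.6e-05). In both genes, replicate 1 of miKO-tFCI was the lowest and replicate 3 the highest of the tFCI libraries, and none reached the Sham range. Sall1, a transcription factor that keeps microglial identity (-1.52), Siglech, a sialic acid binding receptor (-1.50), P2ry13 (-1.69), Gpr34, a lysophosphatidylserine receptor (-1.25), and Tmem119 (-1.04) also fell, as did Cst3, the secreted protease inhibitor cystatin C, at 19293, 20183 and 21581 CPM in miKO-Sham and 6137, 5402 and 4782 CPM in miKO-tFCI (log2FC -1.92 ± 0.18, adjusted p = 2.4e-06). Within batches the median of the list was -1.46 in batch 1 and -0.92 in batch 2.

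Transcription factors of macrophage identity followed the same direction, with 16 of 25 lower, 5 higher and a median of -0.78. Irf8, a factor of the interferon regulatory family, was at 1071, 1037 and 1061 CPM in miKO-Sham and 445, 621 and 610.1 CPM in miKO-tFCI (log2FC -0.93 ± 0.14, adjusted p = 9.5e-05). Spi1 (-0.70), which encodes PU.1, Mef2c (-1.24), Mef2a (-0.91), Cebpa (-1.63) and Klf2 (-0.98), all regulators of myeloid gene expression, fell too. In each of these 6 genes every miKO-tFCI library lay below every miKO-Sham library. The members that rose included Bhlhe40, a stress-responsive repressor, at 2.92, 2.22 and 2.31 CPM in miKO-Sham and 133, 24.1 and 31.3 CPM in miKO-tFCI (log2FC 4.36 ± 0.34, adjusted p = 3.9e-07), Id3, an inhibitor of DNA binding (3.42), and Hif1a, the oxygen-regulated factor (1.20). Bhlhe40 was highest in replicate 1 of miKO-tFCI, and no tFCI library of it reached down to the Sham level.

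Genes of injury-associated microglia rose more often than they fell. Of 42 tested members 26 rose, 4 fell and the median log2FC was 1.11, against 21.9% higher and 13.9% lower over all genes tested. Lgals3, a galectin that binds damaged lysosomes and glycans, was at 37.1, 36.9 and 35.5 CPM in miKO-Sham and 1459.7, 1561 and 1444 CPM in miKO-tFCI (log2FC 5.36 ± 0.29, adjusted p = 1.5e-08), and its 3 tFCI libraries differed little from one another. Gpnmb, a membrane glycoprotein of lipid-laden phagocytes (5.63), Cd63, a tetraspanin of late endosomes (2.41), Ctsl, a lysosomal protease (1.47), and Igf1, a growth factor (2.17), also rose. Trem2, the lipid-sensing receptor of this state, fell and was at 2358, 2443 and 2079.6 CPM in miKO-Sham and 863, 1028 and 835 CPM in miKO-tFCI (log2FC -1.33 ± 0.16, adjusted p = 1.6e-05). Cd9, a tetraspanin, fell as well (3534, 3461 and 3141 CPM in miKO-Sham and 1522, 1677 and 2057 CPM in miKO-tFCI, log2FC -0.95 ± 0.15, adjusted p = 0.00016), and neither gene's groups overlapped. Apoe, the lipid carrier, was at 64078, 65549 and 12774 CPM in miKO-Sham and 13096, 34445 and 29398 CPM in miKO-tFCI (log2FC -0.87 ± 0.47, adjusted p = 0.15), with replicate 3 of miKO-Sham and replicate 1 of miKO-tFCI both low and the groups overlapping, and without replicate 3 of miKO-Sham its log2FC was -1.39 with an adjusted p of 0.00412. The count of 4 members lower was 7 without replicate 3 of miKO-Sham and 2 without its replicate 1, without its replicate 2 or without replicate 1 of miKO-tFCI. The summed level of the list, 136312, 137173 and 68118 CPM in miKO-Sham and 86805, 137797 and 145617 CPM in miKO-tFCI, overlapped between groups as well.

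Lipid uptake and storage genes were among the risers, with 15 of 28 higher and a median of 1.02. Plin2, which coats lipid droplets, was at 961, 1002 and 355 CPM in miKO-Sham and 1956, 3279 and 3478 CPM in miKO-tFCI (log2FC 1.89 ± 0.32, adjusted p = 0.00028). Lpl, lipoprotein lipase, was at 22.6, 21.5 and 24.3 CPM in miKO-Sham and 154, 356 and 360.0 CPM in miKO-tFCI (log2FC 3.59 ± 0.23, adjusted p = 4.9e-08), and Fabp5, an intracellular fatty acid carrier, at 3.89, 8.05 and 2.82 CPM in miKO-Sham and 576, 297 and 284 CPM in miKO-tFCI (log2FC 6.19 ± 0.39, adjusted p = 5.1e-08). None of the 3 genes overlapped between groups, and replicate 1 of miKO-tFCI was the lowest of its group in Plin2 and Lpl but the highest in Fabp5. Among 18 targets of LXR and genes of cholesterol efflux 6 rose and 2 fell (median -0.22), with Ch25h, the enzyme that makes the oxysterol ligand 25-hydroxycholesterol, at 0.139, 0.555 and 0.256 CPM in miKO-Sham and 18.6, 18.3 and 21.9 CPM in miKO-tFCI (log2FC 5.90 ± 0.33, adjusted p = 1.5e-08), and Nceh1, which hydrolyses cholesteryl esters, at a log2FC of 2.23. The efflux pump Abca1 was not called (log2FC -0.34, adjusted p = 0.26), but without replicate 3 of miKO-Sham it was called at -0.62 and 6 members of that list were lower. Of 26 cholesterol synthesis genes 7 rose, with a median of 0.26, and 4 rose without replicate 1 of miKO-Sham or without replicate 1 of miKO-tFCI. Of 52 lysosomal genes 10 were higher and 7 lower, with a median of 0.06. The shares of both lists were near the 21.9% higher of all genes tested, and that of the lysosomal genes near the 13.9% lower as well. The abundant protease Ctsd was not called (log2FC -0.14, adjusted p = 0.55). Of 40 phagocytic and scavenger receptors 15 rose and 7 fell. Their summed level was 19251, 19402 and 17136 CPM in miKO-Sham and 11924, 16515 and 16459 CPM in miKO-tFCI. Unlike the count, this sum was lower in every miKO-tFCI library than in every miKO-Sham library. Msr1, the class A scavenger receptor, was at 16.4, 15.8 and 24.6 CPM in miKO-Sham and 142, 392 and 611 CPM in miKO-tFCI (log2FC 4.20 ± 0.40, adjusted p = 2e-06), while the Fc receptor Fcgr3 fell (log2FC -0.98 ± 0.17, adjusted p = 0.00032). Without replicate 3 of miKO-tFCI 9 of these receptors were called higher, and without replicate 1 of miKO-Sham or of miKO-tFCI 4 were called lower.

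Chemokine ligands rose in most cases, with 17 of 24 tested members higher, 2 lower and a median of 1.86. Over all genes tested 21.9% were higher and 13.9% lower. The summed level of the ligands overlapped between groups, at 4697, 4716 and 3130 CPM in miKO-Sham and 4064, 5136 and 5371 CPM in miKO-tFCI. The ligands of CCR2, which draw monocytes, rose together. Ccl2 was at 221, 207 and 167 CPM in miKO-Sham and 413, 539 and 577 CPM in miKO-tFCI (log2FC 1.36 ± 0.18, adjusted p = 3.9e-05), Ccl7 at 97.2, 89.8 and 107 CPM in miKO-Sham and 303, 416 and 468 CPM in miKO-tFCI (log2FC 2.01 ± 0.17, adjusted p = 6.8e-07) and Ccl12 at 125, 123 and 163 CPM in miKO-Sham and 298, 461 and 444 CPM in miKO-tFCI (log2FC 1.53 ± 0.18, adjusted p = 1.3e-05). In all 3 genes the groups did not overlap and replicate 1 was the lowest tFCI library. The CCR1 ligands Ccl6 (1.89) and Ccl9 (3.25), the CCR8 ligand Ccl8 (3.16), and the neutrophil attractants Cxcl1 (5.55) and Cxcl2 (1.84) rose too. Ccl24, an eosinophil attractant, fell (log2FC -1.56 ± 0.26, adjusted p = 0.00024). Ccl3, the CCR1 ligand MIP-1 alpha, fell with an adjusted p of 0.024 (1639, 1664 and 927 CPM in miKO-Sham and 579, 876 and 945 CPM in miKO-tFCI, log2FC -0.81), but replicate 3 of miKO-Sham lay within the range of miKO-tFCI, and the call was lost without replicate 1 of miKO-tFCI (-0.59), without replicate 1 of miKO-Sham (-0.67) and without its replicate 2 (-0.65). Ccl4, the chemokine MIP-1 beta, was not called (log2FC -0.56, adjusted p = 0.093), but was without replicate 3 of miKO-Sham (-0.79). Of 19 chemokine receptors 8 rose and 3 fell, and Cx3cr1, given above, was among those that fell. Their summed level was 1438, 1410 and 1865 CPM in miKO-Sham and 1033, 962 and 1142 CPM in miKO-tFCI. This sum was lower in every miKO-tFCI library than in every miKO-Sham library. Ccr1 rose (log2FC 3.06 ± 0.38, adjusted p = 2.4e-05), as did Ccr7, which guides cells to lymph nodes. Ccr7 was at 4.17, 1.11 and 4.87 CPM in miKO-Sham and 239, 36.2 and 38.3 CPM in miKO-tFCI (log2FC 4.49 ± 0.50, adjusted p = 8.7e-06), most of it in replicate 1 of miKO-tFCI. With any 1 library left out, the log2FC of Ccr7 lay between 3.51 and 5.73.

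Cytokine and growth factor genes were split. Of 34 tested 17 rose, 6 fell and the median was 0.75. Csf1, the growth factor of microglia themselves, was at 43.6, 40.0 and 35.2 CPM in miKO-Sham and 88.1, 171 and 165 CPM in miKO-tFCI (log2FC 1.79 ± 0.20, adjusted p = 7.4e-06), with every tFCI library above every Sham library. The proinflammatory cytokines Il1b and Tnf did not pass the test. Il1b was at 348, 358 and 274 CPM in miKO-Sham and 524, 224 and 229 CPM in miKO-tFCI (log2FC -0.08 ± 0.24, adjusted p = 0.82) and Tnf at 388, 392 and 252 CPM in miKO-Sham and 188, 344 and 364 CPM in miKO-tFCI (log2FC -0.28 ± 0.23, adjusted p = 0.36). Both overlapped between groups, with Il1b highest and Tnf lowest in replicate 1 of miKO-tFCI. Il1rn, the interleukin-1 receptor antagonist, rose (log2FC 2.51 ± 0.28, adjusted p = 8.9e-06), and Tgfb1 fell (log2FC -0.70 ± 0.13, adjusted p = 0.00069). Among 38 genes of toll-like receptors and NF-kB 12 fell, 3 rose and the median was -0.31. Nfkbia, the inhibitor that retains NF-kB in the cytoplasm, was at 1730.3, 1652 and 1791 CPM in miKO-Sham and 933, 978 and 944 CPM in miKO-tFCI (log2FC -0.86 ± 0.14, adjusted p = 0.00022), and Rela, the p65 subunit of NF-kB, was at 254, 240.0 and 262 CPM in miKO-Sham and 132, 161 and 161 CPM in miKO-tFCI (log2FC -0.74 ± 0.12, adjusted p = 0.00028). Neither gene's groups overlapped, and Tlr2 (log2FC 0.08, adjusted p = 0.8) and Tlr4 (log2FC -0.29, adjusted p = 0.37), receptors of microbial and damage signals, were not called, although Tlr4 was called at -0.73 without replicate 3 of miKO-tFCI.

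Interferon response genes rose. Of 44 tested members 31 were higher, 0 were lower in edgeR's test and in DESeq2, 1 was lower at an unadjusted p under 0.05, and the median log2FC was 1.36, with 1.54 in batch 1 and 1.31 in batch 2. Their summed level was 1940.2, 1932 and 2081 CPM in miKO-Sham and 3651, 3459.9 and 3673 CPM in miKO-tFCI. All 3 tFCI libraries were above all 3 Sham libraries, and the spread among them was small. Ifitm3, which blocks viral fusion in endosomes, was at 101, 85.3 and 90.4 CPM in miKO-Sham and 901, 370.1 and 379.5 CPM in miKO-tFCI (log2FC 2.42 ± 0.26, adjusted p = 5.5e-06), highest in replicate 1 of miKO-tFCI. Irf7, the amplifier of the interferon response, was at 29.3, 25.7 and 32.3 CPM in miKO-Sham and 89.5, 92.4 and 87.0 CPM in miKO-tFCI (log2FC 1.62 ± 0.18, adjusted p = 7e-06), and Rsad2, the antiviral enzyme viperin, at 3.33, 4.99 and 5.12 CPM in miKO-Sham and 43.4, 56.3 and 39.2 CPM in miKO-tFCI (log2FC 3.39 ± 0.21, adjusted p = 4.3e-08), both level across the tFCI libraries. Trim30a (0.91), Slfn2 (1.40), Zbp1, a sensor of Z-form nucleic acid (2.60), and Isg15, the ubiquitin-like modifier (2.04), rose as well. Most antigen presentation genes were not called. Among 21 class I genes 2 rose and 1 fell, with 5 higher and 2 lower without replicate 3 of miKO-Sham, 4 higher and 2 lower without replicate 3 of miKO-tFCI and 3 lower without replicate 1 of miKO-tFCI. H2-D1 fell and was at 3275, 3229 and 3218 CPM in miKO-Sham and 2086, 2079 and 1984 CPM in miKO-tFCI (log2FC -0.66 ± 0.12, adjusted p = 0.00073). Among 16 class II genes 5 fell and 1 rose, or 2 rose without replicate 2 or replicate 3 of miKO-Sham. Within batch 2 alone 9 fell and 0 rose, and with no batch term 3 fell. The summed level of the list was 19293, 18696 and 19525 CPM in miKO-Sham and 10402, 10522 and 11937 CPM in miKO-tFCI, with no overlap between groups. H2-Ab1, a class II chain, was at 77.1, 75.1 and 266 CPM in miKO-Sham and 1117, 89.6 and 76.0 CPM in miKO-tFCI (log2FC 0.27 ± 0.75, adjusted p = 0.8), and of the 3 miKO-tFCI libraries replicate 1 was the high one. With any 1 library left out, the log2FC of H2-Ab1 lay between -0.63 and 1.60, so its sign was not stable. Of 20 complement genes 10 rose and 3 fell, or 1 fell without replicate 1 of miKO-tFCI. Their summed level was 30196, 30127 and 26547 CPM in miKO-Sham and 16512, 23676 and 22804 CPM in miKO-tFCI. Unlike the count, the sum was lower in every miKO-tFCI library than in every miKO-Sham library. C1qb was among the members that fell, a call lost without replicate 1 of miKO-tFCI (log2FC -0.54). The positive regulator Cfp was at 12.8, 16.6 and 38.9 CPM in miKO-Sham and 144, 84.7 and 85.2 CPM in miKO-tFCI (log2FC 2.11 ± 0.38, adjusted p = 0.00046), whereas C1qa (log2FC -0.44, adjusted p = 0.11) was not called.

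The promoters of interferon response genes are known to hold the interferon-stimulated response element, whose core is read here as GAAANNGAA on either strand. Among the 33 members of the type I interferon response list with a promoter in the table given (250 bases before to 50 after the start of the RefSeq gene, GRCm38.p6), 19 or 57.6% held it, against 7.38% of the 11011 genes tested with a promoter and 8.57% of all promoters given. The promoters of Ifitm3 (chr7:141010715-141010994, minus strand) and Trim30a (chr7:104465164-104465443, minus strand) are shown to 30 bases after the start, as the members of the list with the motif and the most reads, both of which were higher in every miKO-tFCI library than in every miKO-Sham library. Capitals mark the matches, which read in the reverse complement in Trim30a:
Ifitm3: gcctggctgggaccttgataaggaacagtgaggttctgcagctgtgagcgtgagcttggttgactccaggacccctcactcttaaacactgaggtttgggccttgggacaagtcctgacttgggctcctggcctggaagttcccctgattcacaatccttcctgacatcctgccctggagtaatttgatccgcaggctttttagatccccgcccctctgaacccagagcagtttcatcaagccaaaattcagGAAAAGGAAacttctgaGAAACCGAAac
Trim30a: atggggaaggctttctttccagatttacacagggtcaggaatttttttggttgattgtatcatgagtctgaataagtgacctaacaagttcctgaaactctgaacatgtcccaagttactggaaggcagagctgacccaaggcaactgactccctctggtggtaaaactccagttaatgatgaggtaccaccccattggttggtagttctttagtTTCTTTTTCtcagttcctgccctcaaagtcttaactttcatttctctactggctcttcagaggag
A match describes these letters and is not evidence of binding.

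Cell division genes rose almost throughout. Of 84 tested genes of mitosis and chromosome segregation 78 rose, 1 fell and the median log2FC was 2.93. Their summed level was 538, 514 and 527 CPM in miKO-Sham and 1612, 1675 and 1896 CPM in miKO-tFCI, and the 3 libraries of each group lay close together. Mki67, the proliferation antigen Ki-67, was at 6.53, 8.46 and 7.68 CPM in miKO-Sham and 50.8, 69.4 and 55.6 CPM in miKO-tFCI (log2FC 2.95 ± 0.19, adjusted p = 5e-08), and Top2a, which untangles chromosomes, at 8.75, 8.60 and 6.28 CPM in miKO-Sham and 63.5, 74.3 and 75.3 CPM in miKO-tFCI (log2FC 3.17 ± 0.16, adjusted p = 1.2e-08). The 6 libraries split into groups with no overlap in both genes. Ccnb1 (4.43) and Cdk1 (2.99), the cyclin and kinase that start mitosis, Birc5 (4.17), the survivin subunit of the chromosomal passenger complex, and Aurka (3.06), a spindle kinase, rose with them. The exception was Iqgap3, a scaffold protein of the IQGAP family, which fell (log2FC -0.79 ± 0.16, adjusted p = 0.0015). Of 53 DNA replication genes 40 rose and the median was 1.29, among them Rrm1, a subunit of ribonucleotide reductase, at 22.6, 22.5 and 27.0 CPM in miKO-Sham and 61.9, 88.0 and 114 CPM in miKO-tFCI (log2FC 1.84 ± 0.16, adjusted p = 7.8e-07), and the helicase subunit Mcm5 (2.45). Of 33 genes of cell cycle entry and arrest 15 rose and 6 fell. The kinase inhibitor Cdkn1a rose (175, 186 and 188 CPM in miKO-Sham and 444, 360.4 and 321 CPM in miKO-tFCI, log2FC 1.02 ± 0.15, adjusted p = 8.7e-05), the cyclin Ccnd3 rose (log2FC 1.07 ± 0.17, adjusted p = 0.00018), and Btg2, an antiproliferative gene, fell (1433, 1426 and 1552 CPM in miKO-Sham and 409, 478 and 485 CPM in miKO-tFCI, log2FC -1.69 ± 0.13, adjusted p = 3.7e-07). Within batches the median of the mitotic list was 2.54 in batch 1 and 2.85 in batch 2, and leaving out any 1 library gave 76 to 78 higher members.

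Genes of the late cell cycle are known for the CCAAT box and for the cell cycle homology region, read here as TTTGAA on either strand. Among 69 promoters of the mitosis and chromosome segregation list, 71% held CCAAT, 68.1% held TTTGAA and 53.6% held both, against 38.4%, 12.3% and 5.1% of the promoters of genes tested. For DNA replication, 13 of 43 promoters (30.2%) held TTTCCCGC or TTTGGCGC on either strand, forms of the E2F site, against 2.99% of the genes tested. The motifs were counted independently of each other, and where they overlap both count. The promoters of Top2a (chr11:99024160-99024439, minus strand) and Mki67 (chr7:135716350-135716629, minus strand) are given in the same form as the members of the list with both motifs and the most reads. Capitals mark CCAAT and TTTGAA, or their reverse ATTGG and TTCAAA:
Top2a: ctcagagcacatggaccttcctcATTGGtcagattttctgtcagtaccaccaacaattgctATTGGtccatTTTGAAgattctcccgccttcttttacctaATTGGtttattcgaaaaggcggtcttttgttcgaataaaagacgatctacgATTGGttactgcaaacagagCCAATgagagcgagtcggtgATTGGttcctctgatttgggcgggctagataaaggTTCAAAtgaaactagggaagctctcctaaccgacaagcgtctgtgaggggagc
Mki67: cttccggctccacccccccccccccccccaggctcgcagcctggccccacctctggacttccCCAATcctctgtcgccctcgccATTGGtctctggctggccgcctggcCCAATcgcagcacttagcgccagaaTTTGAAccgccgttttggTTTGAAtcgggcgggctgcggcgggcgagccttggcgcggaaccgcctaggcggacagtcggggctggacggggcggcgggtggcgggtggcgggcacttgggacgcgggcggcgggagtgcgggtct
Top2a held 6 CCAAT and 2 TTTGAA matches in the stretch shown and Mki67 held 3 and 2, which describes the letters and not their use.

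**Figure D3:**
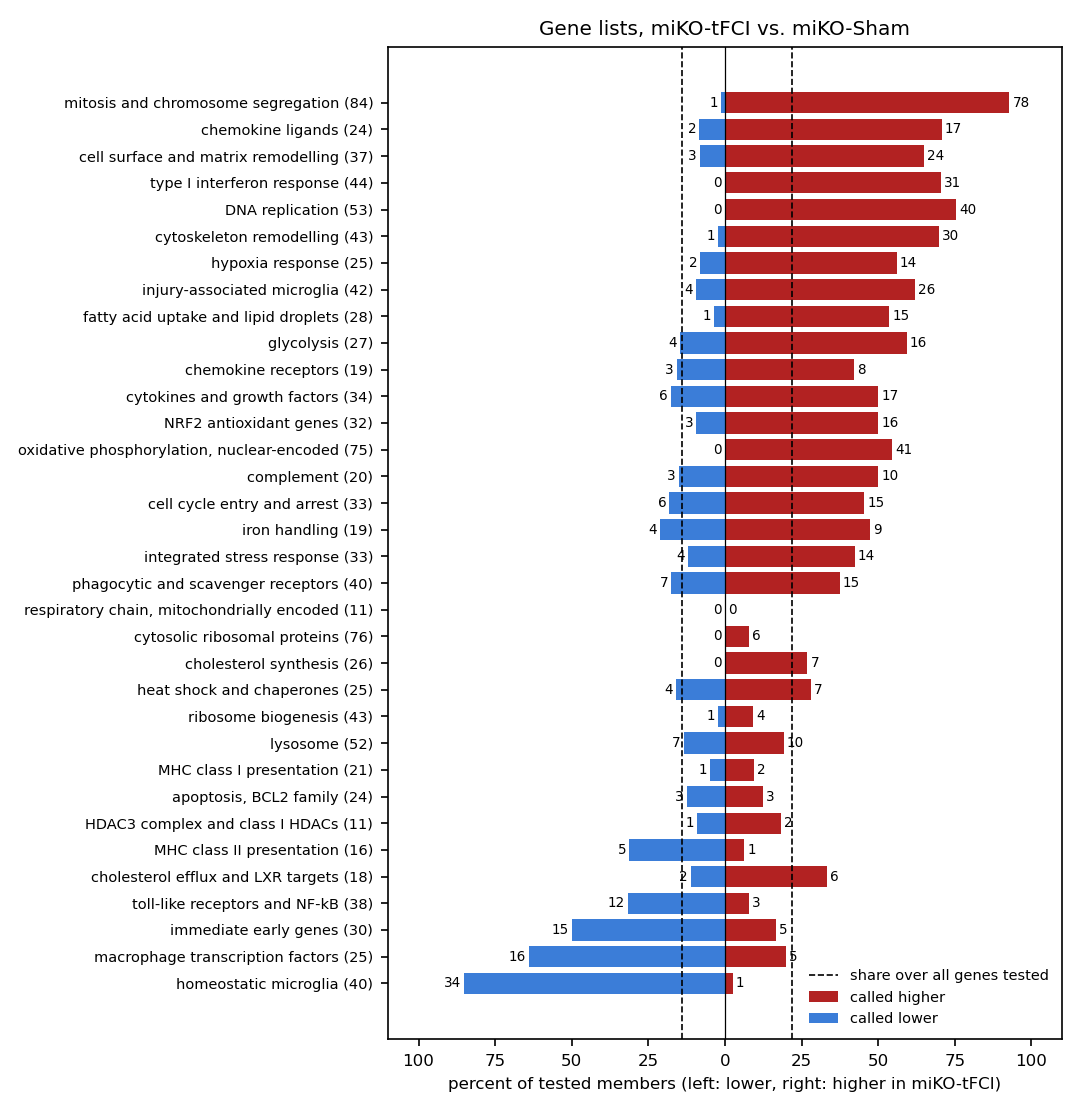
For each gene list, bars show the percent of its tested members (number in parentheses) called lower (blue, left) and higher (red, right) in miKO-tFCI vs. miKO-Sham, with the number of genes at the end of each bar, ordered by the median log2FC. The dashed lines mark 21.9% higher and 13.9% lower over all genes tested, beside 78 of 84 mitotic genes higher and 34 of 40 homeostatic genes lower.

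Energy metabolism genes rose in part. Of 27 glycolysis genes 16 rose, 4 fell and the median was 0.85. Pkm, pyruvate kinase, was at 504, 480.4 and 421 CPM in miKO-Sham and 1637, 1606 and 1591 CPM in miKO-tFCI (log2FC 1.78 ± 0.12, adjusted p = 1.5e-07), and Ldha, lactate dehydrogenase, at 284, 281 and 301 CPM in miKO-Sham and 1149, 818 and 889.7 CPM in miKO-tFCI (log2FC 1.71 ± 0.14, adjusted p = 5.6e-07). All tFCI libraries were above all Sham libraries in both genes. The glucose transporter Slc2a1 rose (log2FC 1.72 ± 0.20, adjusted p = 1.3e-05), whereas the fructose transporter of microglia, Slc2a5, fell and was at 355, 309 and 598 CPM in miKO-Sham and 116, 110.2 and 126 CPM in miKO-tFCI (log2FC -1.83 ± 0.20, adjusted p = 7.3e-06), as did Hk2, hexokinase 2 (log2FC -1.12 ± 0.15, adjusted p = 5.5e-05). Of 25 hypoxia response genes 14 rose, 2 fell (1 without replicate 1 of miKO-Sham or of miKO-tFCI) and the median was 1.14, with Hmox1, heme oxygenase 1, at 125, 138 and 80.7 CPM in miKO-Sham and 209, 338 and 379 CPM in miKO-tFCI (log2FC 1.42 ± 0.24, adjusted p = 0.00028), and Hilpda, a lipid droplet protein (2.75). Of 75 nuclear-encoded genes of oxidative phosphorylation 41 rose, but the median of 0.62 was 1.08 in batch 1 and 0.47 in batch 2, only 16 were called within batch 2, 26 without replicate 1 of miKO-tFCI and 25 without replicate 1 of miKO-Sham. Of the 11 mitochondrially encoded genes 0 were called in edgeR's test or in DESeq2 and 1 had an unadjusted p under 0.05 (median log2FC 0.31). Their summed level was 11991, 12307 and 3576 CPM in miKO-Sham and 17385, 9711 and 8462 CPM in miKO-tFCI.

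Ribosomal protein genes were mostly not called, and single libraries set the count. Of 76 tested 6 rose and the median was 0.30. Their summed level was 16157, 16891 and 7264 CPM in miKO-Sham and 21365, 15431 and 12104 CPM in miKO-tFCI. Replicate 3 of miKO-Sham lay far below its other 2 libraries, and replicate 2 of miKO-Sham, whose batch label is in doubt, lay above replicates 2 and 3 of miKO-tFCI. Without replicate 2 of miKO-Sham 53 members were called higher, and with replicate 2 set in batch 1 the count was also 53, whereas it was 2 within batch 2, 2 without replicate 1 of miKO-Sham, 2 without its replicate 3, and 2 without replicate 1 or replicate 2 of miKO-tFCI. Of 43 ribosome biogenesis genes 4 rose (2 without replicate 1 of miKO-tFCI), and Myc, the growth-promoting factor, fell (log2FC -1.12 ± 0.15, adjusted p = 4.7e-05).

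Immediate early genes fell, with 15 of 30 lower, 5 higher and a median of -0.56. Jun, a subunit of the AP-1 factor, was at 2644, 2619 and 3660.4 CPM in miKO-Sham and 634, 994 and 901 CPM in miKO-tFCI (log2FC -1.84 ± 0.16, adjusted p = 9.2e-07), Fos at 5308, 5172 and 3819 CPM in miKO-Sham and 1712, 1910.2 and 1844 CPM in miKO-tFCI (log2FC -1.38 ± 0.16, adjusted p = 1.3e-05), and Dusp1, a phosphatase of MAP kinases, at 3646, 3481 and 4253 CPM in miKO-Sham and 854, 1328 and 1690.0 CPM in miKO-tFCI (log2FC -1.59 ± 0.18, adjusted p = 1.3e-05). Every tFCI library lay below every Sham library in the 3 genes, and replicate 1 was the lowest of the tFCI libraries. Egr1 (-1.08) and Zfp36 (-1.41), which destabilises cytokine mRNA, fell as well, and Nr4a3, an orphan nuclear receptor, rose from a low level (log2FC 3.06 ± 0.53, adjusted p = 0.0004). Among 25 heat shock and chaperone genes 7 rose and 4 fell, near the 21.9% and 13.9% of all genes tested, with Hspd1, a mitochondrial chaperonin (0.86), and Pdia4 (0.93), a disulfide isomerase, higher and Dnajb1 (-0.86), a cochaperone of HSP70, lower beside Hspa1a and Hspa1b.

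Stress response genes rose in part. Of 33 genes of the integrated stress response 14 rose, 4 fell and the median was 0.52. Their summed level was 5029, 4942 and 5369 CPM in miKO-Sham and 3329, 4061 and 4143 CPM in miKO-tFCI. Unlike the count, this sum was lower in every miKO-tFCI library than in every miKO-Sham library. Asns, asparagine synthetase, was at 1.39, 0.694 and 3.84 CPM in miKO-Sham and 19.8, 12.1 and 16.3 CPM in miKO-tFCI (log2FC 3.03 ± 0.54, adjusted p = 0.00047), while Ppp1r15a, which reverses the response, fell (log2FC -1.39 ± 0.17, adjusted p = 2.4e-05). Of 32 NRF2 antioxidant genes 16 rose and 3 fell, with Prdx1, a peroxiredoxin, at 655, 638 and 375 CPM in miKO-Sham and 1649, 1699.7 and 1923 CPM in miKO-tFCI (log2FC 1.67 ± 0.18, adjusted p = 8.3e-06) and Slc7a11, the cystine importer, at 10.4, 14.3 and 8.07 CPM in miKO-Sham and 165, 87.0 and 94.5 CPM in miKO-tFCI (log2FC 3.32 ± 0.28, adjusted p = 7.8e-07). Of 19 iron handling genes 9 rose and 4 fell. Slc40a1, the iron exporter ferroportin, was at 287, 274 and 294 CPM in miKO-Sham and 50.3, 103 and 169 CPM in miKO-tFCI (log2FC -1.53 ± 0.25, adjusted p = 0.00025), and Lcn2, which binds iron-carrying siderophores, at 18.7, 23.2 and 19.7 CPM in miKO-Sham and 171, 119 and 100.0 CPM in miKO-tFCI (log2FC 2.57 ± 0.51, adjusted p = 0.001). In both genes the groups did not overlap. Of 24 genes of the BCL2 family 3 rose and 3 fell, with 6 higher without replicate 2 of miKO-Sham or replicate 2 of miKO-tFCI and 5 lower without replicate 3 of miKO-tFCI. In all 25.0% of these genes were called, below the 35.8% of all genes tested. Bcl2 itself rose (log2FC 1.45 ± 0.22, adjusted p = 0.00012), as did Bok and Bik. Bbc3 (log2FC -1.24 ± 0.17, adjusted p = 5.1e-05) and Bmf (log2FC -1.32 ± 0.23, adjusted p = 0.00048) fell, as did Bcl2a1b. The call of Bik was lost without replicate 1 of miKO-tFCI (log2FC 1.87). That of Bcl2a1b was lost without replicate 1 (-0.80) or 2 (-0.66) of miKO-Sham.

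Genes of the cell surface and matrix rose in 24 of 37 cases and fell in 3, with a median of 1.67. Adam8, a membrane protease, was at 50.8, 49.5 and 24.8 CPM in miKO-Sham and 157, 417 and 425 CPM in miKO-tFCI (log2FC 2.91 ± 0.34, adjusted p = 1.3e-05), and Cd44, the hyaluronan receptor, at 14.9, 14.6 and 10.1 CPM in miKO-Sham and 127, 119 and 99.4 CPM in miKO-tFCI (log2FC 3.13 ± 0.17, adjusted p = 1.5e-08). Neither gene overlapped between groups, and replicate 1 of miKO-tFCI was the lowest of its group in Adam8 and the highest in Cd44. Mmp2 (log2FC -1.02 ± 0.19, adjusted p = 0.00067) and the integrin Itgb3 (log2FC -0.89 ± 0.17, adjusted p = 0.00062) fell. Of 43 cytoskeletal genes 30 rose and 1 fell, with Vim, vimentin, at 9.44, 9.85 and 11.4 CPM in miKO-Sham and 660.1, 273 and 233 CPM in miKO-tFCI (log2FC 5.07 ± 0.27, adjusted p = 1.5e-08), Anxa2, an actin-binding annexin, at 12.4, 9.99 and 9.09 CPM in miKO-Sham and 673, 247 and 271 CPM in miKO-tFCI (log2FC 5.10 ± 0.23, adjusted p = 9.5e-09), and Actg1, gamma actin, at 321, 313 and 341 CPM in miKO-Sham and 842, 715 and 702 CPM in miKO-tFCI (log2FC 1.21 ± 0.12, adjusted p = 4.3e-06). Replicate 1 of miKO-tFCI held the highest level of all 3. Marcks, a membrane-bound actin regulator, was the member that fell (log2FC -0.83 ± 0.14, adjusted p = 0.00034), and 2 fell without replicate 3 of miKO-tFCI.

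Markers of other cells moved with the groups, most of all in replicate 1 of miKO-tFCI. All 16 tested endothelial and mural markers rose (median 4.11), and their sum was 445, 444 and 421 CPM in miKO-Sham and 3325, 1202 and 1247 CPM in miKO-tFCI. Cldn5, the tight junction protein of brain endothelium, was at 3.33, 1.80 and 0.256 CPM in miKO-Sham and 79.0, 24.9 and 18.9 CPM in miKO-tFCI (log2FC 4.52 ± 0.38, adjusted p = 6.3e-07), and Col3a1 and Dcn of the leading genes also belong to this list. Of 12 astrocyte markers 10 rose (sum 216, 179 and 161 CPM in miKO-Sham and 1725, 389 and 394 CPM in miKO-tFCI), of 20 markers of monocytes and infiltrating macrophages 13 rose (111, 99.7 and 170.5 CPM in miKO-Sham and 1812, 822 and 898 CPM in miKO-tFCI), and of 9 dendritic cell markers 5 rose (24.7, 25.5 and 33.0 CPM in miKO-Sham and 381, 61.1 and 59.3 CPM in miKO-tFCI). Gfap, the intermediate filament of astrocytes, was at 1.11, 1.11 and 2.82 CPM in miKO-Sham and 251, 88.1 and 88.5 CPM in miKO-tFCI (log2FC 6.21 ± 0.38, adjusted p = 3.5e-08), and Fn1, fibronectin, from the monocyte list, at 3.05, 2.22 and 12.3 CPM in miKO-Sham and 358, 136 and 122 CPM in miKO-tFCI (log2FC 4.92 ± 0.55, adjusted p = 9.9e-06). In these 4 lists replicate 1 of miKO-tFCI lay far above replicates 2 and 3, which in turn lay above the Sham libraries. Without replicate 1 of miKO-tFCI the counts called higher were 15 for endothelial and mural, 9 for astrocyte, 12 for monocyte and 2 for dendritic cell markers, and the last count was also 2 without replicate 1 of miKO-Sham.

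Of 14 markers of border-associated macrophages 10 rose. Within batches their median log2FC was 1.51 in batch 1, which holds replicate 1 of miKO-tFCI, and 2.05 in batch 2. Their sum showed the opposite order to the sums of the lists above, at 1636, 1707 and 1510.5 CPM in miKO-Sham and 1245, 2537 and 2525 CPM in miKO-tFCI. In this sum replicate 1 of miKO-tFCI lay below the Sham range and replicates 2 and 3 above it. Most of that total was Stab1, a scavenger receptor, which was not called (1498, 1576 and 1068 CPM in miKO-Sham and 661, 1491 and 1277 CPM in miKO-tFCI, log2FC -0.31 ± 0.24, adjusted p = 0.32). Of 11 oligodendrocyte markers 9 rose, of 14 neutrophil markers 6 rose and 1 fell, of 8 B cell markers 3 rose and 1 fell, of 7 neuronal markers 4 rose and 1 fell, and of 5 T and NK cell markers 0 were called by edgeR, by DESeq2 or at an unadjusted p under 0.05. The neuronal count fell to 1 or 2 without any 1 of the miKO libraries other than replicate 3 of miKO-Sham. The summed levels were 157, 152 and 192 CPM in miKO-Sham and 348, 228 and 261 CPM in miKO-tFCI for oligodendrocytes and 1147, 1182 and 1167 CPM in miKO-Sham and 1344, 1459 and 1442 CPM in miKO-tFCI for neutrophils. They were 382, 379 and 486 CPM in miKO-Sham and 289.9, 223 and 251 CPM in miKO-tFCI for B cells, 15.3, 19.6 and 14.7 CPM in miKO-Sham and 32.1, 21.7 and 20.8 CPM in miKO-tFCI for neurons and 8.47, 12.3 and 7.30 CPM in miKO-Sham and 20.4, 5.28 and 7.17 CPM in miKO-tFCI for T and NK cells. The B cell total was mostly Ighm, an immunoglobulin heavy chain, which fell (log2FC -1.32 ± 0.15, adjusted p = 9.4e-06). Some markers of these cells were nearly absent, and others with too few reads to be tested went in either direction. Ncr1 of NK cells and Slc17a6 of neurons had 0 reads in all 6 libraries, and Ly6g of neutrophils had at most 6. Syt1 of neurons had 0, 0 and 0 reads in miKO-Sham and 10, 15 and 6 in miKO-tFCI. Cd3e of T cells had 2, 2 and 0 in miKO-Sham and 18, 3 and 2 in miKO-tFCI, and Cd8a had 7, 7 and 0 in miKO-Sham and 0, 0 and 0 in miKO-tFCI. Against these totals stood a summed homeostatic level of 28224 to 40274 CPM in miKO-tFCI.

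The marker levels stood beside several of the results above. Col3a1, Dcn, Fbln2, Il33 and Cyp1b1, which connective tissue, vessel or glial cells also express, were higher in replicate 1 of miKO-tFCI than in its other libraries, and so were Ccr7, Flt3, H2-Ab1, Vim and Anxa2. Spp1, Mki67 and Ccl2 were lower in replicate 1 than in replicates 2 and 3, and Lgals3, Pkm and Irf7 stood at about the same level in all 3 libraries. Whether RNA of other cells had a part in the levels of the first set, or of the others, was not tested.

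**Figure D4:**
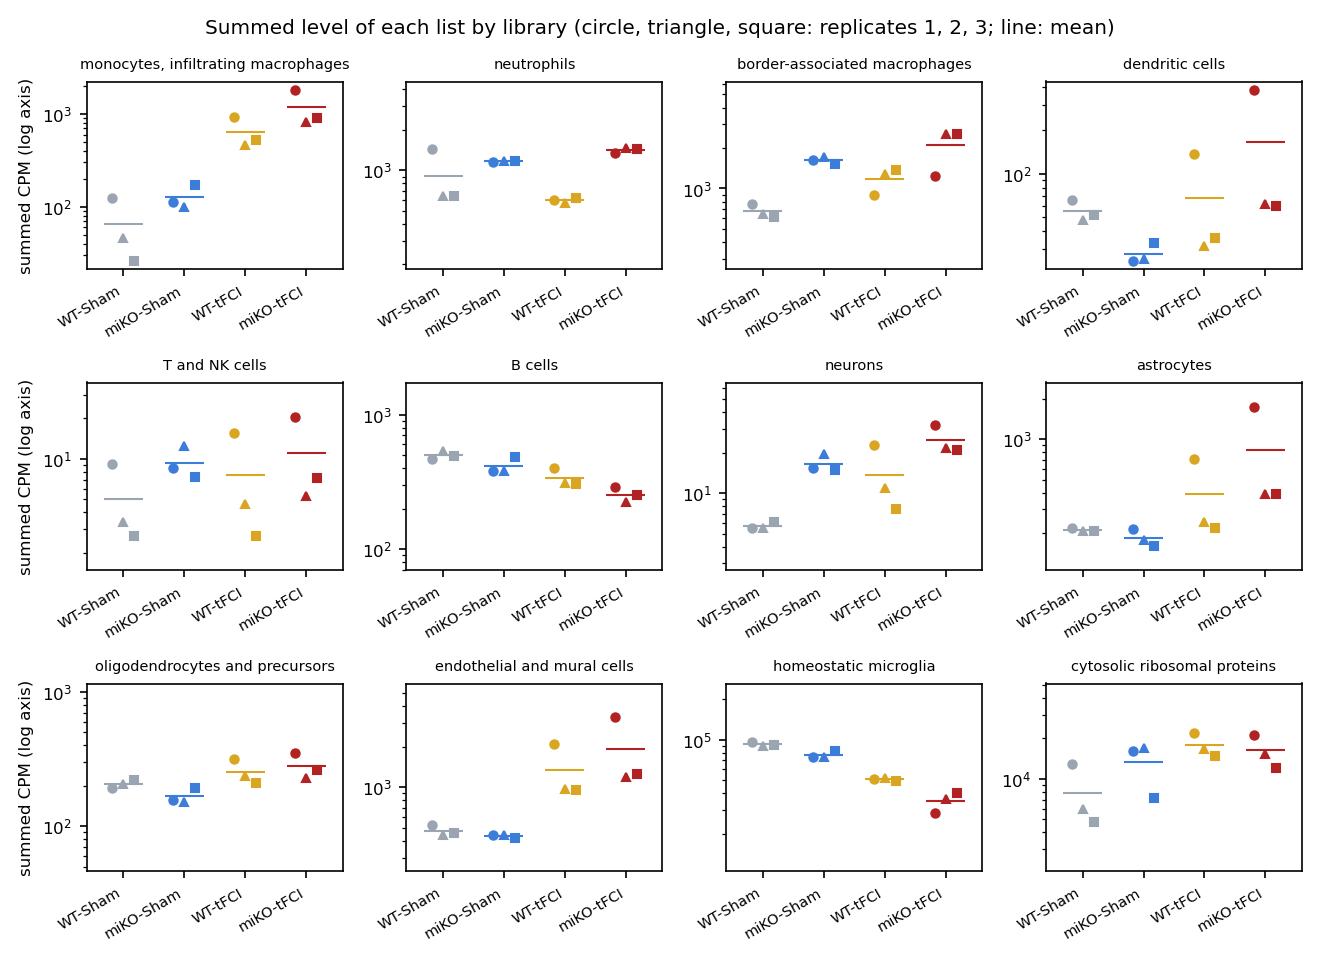
Summed CPM (log axis) of each marker list in every library of the 4 groups, with homeostatic microglia and ribosomal proteins for scale, circles, triangles and squares for replicates 1, 2 and 3, and a line at the mean. Replicate 1 of miKO-tFCI, the circle, was the highest of its group for endothelial, astrocyte, monocyte and dendritic markers, at 3325 CPM against 1202 and 1247 for the endothelial and mural list.

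The response in WT microglia, from 6 other libraries in the same fit, gives a scale for that of miKO. WT-tFCI vs. WT-Sham called 3440 genes higher and 1925 lower (32.6%). The responses had 3552 DEGs in the same direction, which is 60.3% of the miKO and 66.2% of the WT calls, and the 2 sets of log2FC correlated with r = 0.792 over 16451 genes, a description, since genes do not vary independently. The 2 comparisons share no library, but share the batch term and the estimate of spread. Of the 2270 genes called in miKO and not in WT, the test of the difference called 203. That test, the interaction of genotype and surgery, called 629 genes (3.82%), with 206 (1.25%) more positive and 423 (2.57%) more negative in miKO.

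Several lists rose less in miKO than in WT. Mitosis had a median of 2.93 in miKO and 4.13 in WT, and 23 of its 84 genes were called lower in the interaction, among them Mki67 (2.95 in miKO, 5.16 in WT, difference -2.20 ± 0.27, adjusted p = 0.00042). Injury-associated genes had medians of 1.11 and 2.04, with 16 of 42 lower in the interaction. Cytokine genes had medians of 0.75 and 2.07, with 10 of 34 lower, including Il1b (difference -3.68 ± 0.35, adjusted p = 6e-05) and Tnf (difference -3.18 ± 0.33, adjusted p = 0.00014). Phagocytic receptors had 11 of 40 lower, and lysosomal genes 7 of 52. The homeostatic list had medians of -1.06 and -0.95, with 2 of 40 higher and 4 lower in the interaction, and the difference for P2ry12 was 0.02 ± 0.29, adjusted p = 0.98. Ribosomal protein genes had medians of 0.30 and 1.25 with 4 of 76 lower. The count of interaction calls itself was sensitive to single libraries, and it was 95 higher and 186 lower without replicate 2 of WT-tFCI, 96 and 185 without its replicate 3, 115 and 214 without replicate 2 of WT-Sham, 108 and 207 without its replicate 3, and 116 and 267 without replicate 1 of miKO-Sham.

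A difference between the responses can come from the Sham or the tFCI libraries, so the levels of all 4 groups are given. In 38 genes the direction was opposite, lower in miKO and higher in WT. All 38 were called in the interaction, which calls in opposite directions favour by construction. The choice of these genes leaves miKO-Sham or WT-tFCI as the group with the highest mean, and in 28 of them it was miKO-Sham. Cd9 was one of them, at 843, 776 and 731 CPM in WT-Sham and 1224, 1201 and 1158 CPM in WT-tFCI, beside the miKO values above. Clec7a, the beta-glucan receptor of activated microglia, was at 546, 540.2 and 258 CPM in miKO-Sham and 158, 233 and 348 CPM in miKO-tFCI and at 20.6, 16.2 and 15.9 CPM in WT-Sham and 90.8, 93.9 and 78.3 CPM in WT-tFCI, and its difference was -3.18 ± 0.41, adjusted p = 0.00068. Its miKO-Sham libraries were far above the WT-Sham libraries, while the tFCI levels of the 2 genotypes were closer. The fall of Clec7a in miKO was no longer called without replicate 1 or 2 of miKO-Sham (log2FC -0.66 in both cases) or without replicate 1 (-0.56) or 2 (-0.82) of miKO-tFCI. In the other 27 opposite genes, higher in miKO and lower in WT, the choice leaves miKO-Sham or WT-tFCI as the lowest group. It was miKO-Sham in 26. Ccl9, the CCR1 ligand above, rose in miKO, where it was at 14.4, 11.7 and 28.1 CPM in miKO-Sham and 119.8, 195 and 204 CPM in miKO-tFCI. It was not called in WT, at 143, 124 and 105 CPM in WT-Sham and 179, 176 and 149 CPM in WT-tFCI (difference 2.81 ± 0.37, adjusted p = 0.00073).

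**Figure D5:**
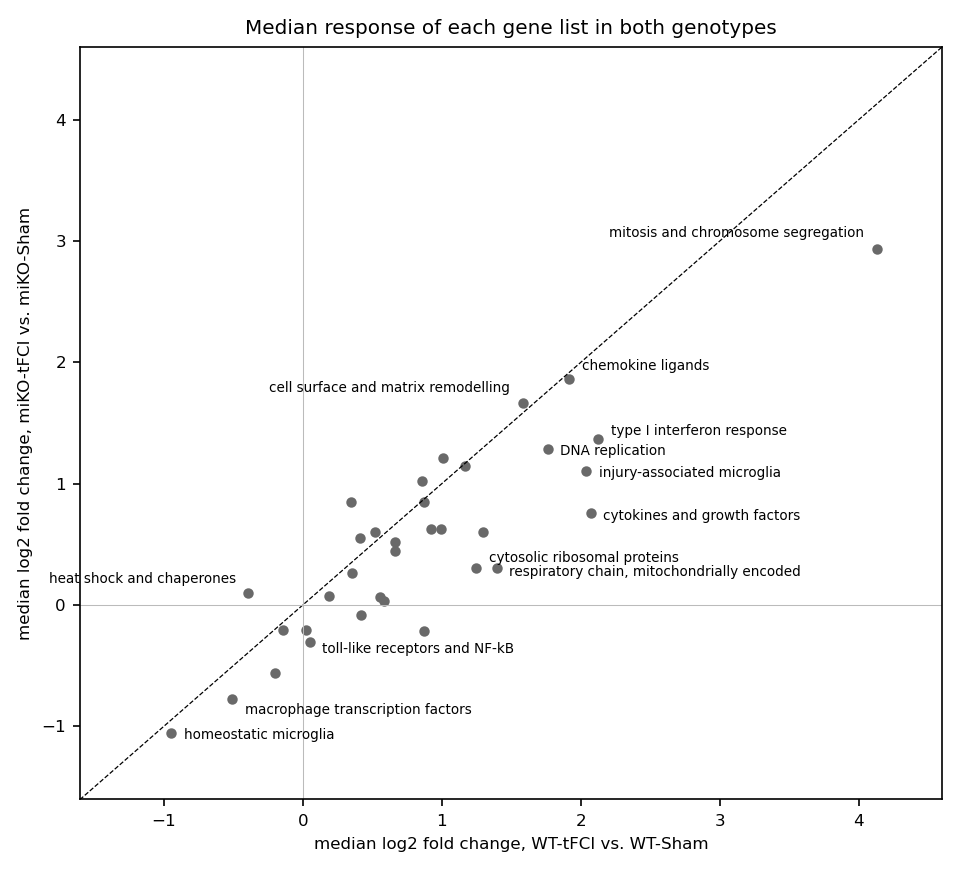
Median log2FC of each gene list in miKO-tFCI vs. miKO-Sham (vertical axis) against WT-tFCI vs. WT-Sham (horizontal axis), with the line of equal medians dashed. Mitosis (4.13 in WT, 2.93 in miKO), cytokines (2.07, 0.75) and injury-associated genes (2.04, 1.11) lie below the line, and the homeostatic list (-0.95, -1.06) lies close to it.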

How the data were processed

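The authors deposited 1 table of raw read counts per Ensembl gene for each of 12 bulk RNA-seq libraries (SMART-Seq v4 cDNA, paired-end reads). The submitters' processing notes name FastQC 0.11.9, Trim Galore, HISAT2 2.2.1, SAMtools, HTSeq 1.99.2 and the builds mm10 and GRCm38.p6. The strand setting of the counting is not given in the sources used here, and 1809 of the DEGs overlap an exon on the other strand, whose reads cannot be told apart without it. Of 55401 gene identifiers 55141 matched the GENCODE annotation of GRCm38, which gave the symbols. Reads on no feature (45.3 to 50.5 percent in the miKO libraries) and the other summary lines stayed out of library sizes.

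Groups came from the sample labels, and batch from the labels' batch entries. Counts of all 12 libraries were filtered (filterByExpr), scaled by TMM (factors 0.864 to 1.11) and fitted with group and batch in edgeR 4.0.16 under R 4.3.3 (limma 3.58.1), with quasi-likelihood tests of the miKO response, the WT response and their difference, and Benjamini-Hochberg adjustment over 16451 genes. The common biological coefficient of variation was 0.199. The scripts were tested on simulated data. CPM values are TMM-scaled. The study used a threshold of adjusted p with the same fold limit, and lists were described by counts and medians without a test of a list.

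The comparison, the gene lists and the named genes were chosen with earlier results of these data known. Named genes are Hdac3, the 10 that rose and the 10 that fell most (called, groups not overlapping, over 10 counts in each library of the higher group and over 3 in 1 of the lower group, without predicted or unplaced genes), for each list the called members with the most CPM, the 10 largest interactions in each direction, and any other list member with its value. Alternatives were DESeq2 1.42.0 and its size factors, no filter or a mean of at least 50 counts, only the miKO libraries, no batch term, batch 2 alone, a replicate block, each library left out, miKO-Sham replicates 1 and 2 summed, and, chosen after seeing the data, these summed within batch 1 or replicate 2 set in batch 1. Promoters came from RefSeq. Some genes of the lists are counted in them but not reported by name here. The sequence of Hdac3, open chromatin and other assays of the study were not analysed here.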

Additional observations from a re-analysis of the deposited data

Results flagged for a closer look

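The stroke response of miKO microglia differed from that of WT microglia, by the interaction term of edgeR's quasi-likelihood test, in 206 genes with a more positive and 423 with a more negative log2FC in miKO (adjusted p under 0.05 and a difference beyond 0.58). The 10 most negative and the 10 most positive, chosen by size among genes with more than 3 reads in at least 1 library of each group, are given here with their values, and what lies behind them was not tested.

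Among the negative differences, Slc2a6, a hexose transporter of the lysosome, differed by -5.25 and was at 126, 122 and 100.3 CPM in miKO-Sham and 119, 176 and 158 CPM in miKO-tFCI against 2.28, 2.13 and 3.08 CPM in WT-Sham and 102, 133 and 134 CPM in WT-tFCI. The 3 WT-Sham libraries were the low ones, and the other 9 libraries overlapped. Mt2, a metallothionein, differed by -4.54, Cyp4f18, a cytochrome P450, by -3.97, Cst7, a cystatin of injury-associated microglia, by -3.76, AB124611 by -3.33, and Dna2, a nuclease of DNA replication and repair, by -3.30. Cst7 was at 393, 394 and 197 CPM in miKO-Sham and 416, 537 and 549 CPM in miKO-tFCI against 11.8, 8.85 and 13.6 CPM in WT-Sham and 213, 258 and 237 CPM in WT-tFCI, so that WT-Sham was again the low group. The cytokine genes Il12b (-4.42) and Il1b (-3.68) belonged here too, with Il1b at 50.7, 38.1 and 33.0 CPM in WT-Sham and 411, 531 and 491 CPM in WT-tFCI. Cdc42bpg, a kinase, differed by -3.30 and Slc24a1, a sodium, potassium and calcium exchanger, by -3.29, and Slc24a1 fell in miKO and rose in WT. The call of Cdc42bpg was lost without any 1 library other than replicate 1 of WT-Sham, replicate 3 of miKO-Sham and replicate 2 of miKO-tFCI, with an adjusted p up to 0.122.

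Among the positive differences, Il7r, the interleukin-7 receptor, differed by 4.59 and was at 0.694, 0.694 and 2.69 CPM in miKO-Sham and 28.1, 8.42 and 9.27 CPM in miKO-tFCI against 35.5, 26.2 and 21.8 CPM in WT-Sham and 17.2, 7.96 and 9.38 CPM in WT-tFCI. The 3 miKO-Sham libraries were the lowest of all 12. Vangl1, a planar polarity protein, differed by 4.12, Pstpip2, a cytoskeletal adaptor of macrophages, by 3.88, Nbl1, a secreted BMP antagonist, by 3.72, Arhgef25, a guanine nucleotide exchange factor, by 3.59, and Rcn1, a calcium-binding protein, by 3.51. In each of these 5 genes the mean of miKO-Sham was the lowest of the 4 groups. Ctnnd2, a catenin, differed by 4.30, Adgre4, an adhesion receptor of macrophages, by 4.09, Atp8b1, a lipid flippase, by 3.76, and Col6a3, a collagen chain, by 3.46. The calls of these 4 were lost without single libraries: for Ctnnd2 without replicate 1 of miKO-tFCI (adjusted p = 0.0519 in edgeR's test), for Col6a3 without that library (0.0591), without replicate 1 of miKO-Sham (0.0583) or replicate 2 of WT-tFCI (0.0521), for Adgre4 without any 1 library other than replicate 1 of WT-Sham, replicate 3 of miKO-Sham and replicates 2 and 3 of miKO-tFCI (up to 0.212), and for Atp8b1 without replicate 2 or 3 of WT-Sham, replicate 2 or 3 of WT-tFCI, replicate 1 of miKO-Sham or replicate 1 of miKO-tFCI (up to 0.0713).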

How the results depend on the processing

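No log2FC that was called, in the miKO comparison or under an alternative, changed sign between them among the 247 genes selected for naming, whereas values that were not called could, and 179 of the 247 stayed on the same side of both thresholds throughout. DEGs in miKO-tFCI vs. miKO-Sham were 2808 to 3880 higher and 1869 to 2528 lower when any 1 library was left out, and 2072 were higher with a mean of at least 50 counts (the same number, 2072, was higher in WT), since fewer genes were tested. With the batch term dropped and replicates 1 and 2 of miKO-Sham summed, 4238 of the 5887 calls were kept.

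The interaction's 206 higher and 423 lower genes became 347 higher in DESeq2, 458 and 814 without a filter, 85 and 218 without the batch term, 26 and 97 with miKO-Sham replicates 1 and 2 also summed, 137 higher within batch 2, 312 higher with replicate 2 of miKO-Sham set in batch 1, and 95 to 299 and 185 to 584 with any 1 library left out. Among 75 oxidative phosphorylation genes the count higher, 41, was 26 without the batch term, 16 within batch 2, 16 with the Sham libraries summed and no batch term, 51 with them summed in batch 1, 53 with replicate 2 set in batch 1 and 25 to 54 with 1 library left out. Among 76 ribosomal protein genes the count higher, 6, was 11 without a filter, 2 with only the 6 miKO libraries, 3 without batch, 2 within batch 2, 1 with the Sham libraries summed and no batch term, 51 with them summed in batch 1, 53 with replicate 2 set in batch 1, and 2 to 53 with 1 library left out. The count of fatty acid genes higher, 15, was 8 with a mean of at least 50 counts and 9 within batch 2, and that of astrocyte markers, 10, was 6 with that mean. Where the construction does not give it, the cause was not tested.

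With the replicate number as a block, 3599 genes were higher and 2272 lower, and 13 ribosomal protein genes were higher. The numbers did not pair the miKO libraries: deviations of same-numbered libraries correlated at 0.0978, -0.0239 and 0.211, and replicate 1 and replicate 2 of miKO-tFCI did not correlate best with their own number.

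Depth limited genes with few Sham reads: 510 of the 3603 higher genes had at most 3 reads in each miKO-Sham library, so the size of their rise was not measured well. With 3 libraries per group, p-values measure the spread between these libraries.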

Other observations

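Several gene families moved together in miKO-tFCI vs. miKO-Sham. Some of their members, among them Ms4a6c, Slfn2, S100a8 and Col3a1, also belong to the lists above, so the counts partly repeat those of the lists. These families were chosen by symbol after their values were seen, and their counts are descriptions, beside 21.9% higher and 13.9% lower over all genes tested. Of 10 Ms4a genes, membrane proteins of myeloid cells and lymphocytes, 8 were higher (median log2FC 2.45), and of 8 Slfn genes, growth regulators induced by interferon, 7 were higher (median 2.12). Of 8 S100a genes, calcium-binding proteins, 7 were higher (median 2.72), and of 18 serpins, protease inhibitors, 9 (median 1.87). Of 39 proteasome subunits 17 were higher, with a smaller median of 0.53. In WT the counts higher were 7 of the Ms4a, 5 of the Slfn, 6 of the S100a, 6 of the serpin and 14 of the proteasome genes.

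Matrix genes that macrophages express little were high as well. Of 29 collagen chains 22 were higher and 2 lower (median 4.0), and all 8 laminin chains tested were higher (median 3.65), with 19 collagens and 8 laminins higher in WT. The endothelial and mural totals given above moved with them, and the part of such cells was not tested. Zinc finger genes named Zfp with a number, without Zfp36, went the other way: of 307 tested 81 were lower and 11 higher (median -0.49), and in WT 144 were lower and 6 higher. Of 79 mitochondrial ribosomal proteins 17 were higher and 1 lower (median 0.25).

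Other promoter motifs were also counted as letters in the same windows. Among the genes tested with a promoter, 4.19% held the lysosomal motif GTCACGTG, and 19.5% of 41 promoters of the lysosome list did, but only 2.66% of the genes called higher and 3.71% of those called lower. The stress motif TGATGCAA was in 21.4% of 28 promoters of the integrated stress response list, in 0.645% of the genes tested and in 0.647% of those called higher. The AP-1 motif TGANTCA was in 6.78% of the promoters of genes called higher, 4.46% of those called lower and 5.06% of the genes tested.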
